A study of Mus musculus with 8 samples.

Results

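The genes described here are 46 endothelial genes of the mouse heart, chosen by name as markers of the endocardium, of coronary vessels, of lymphatic vessels and of endothelium at large, together with endothelial transcription factors, signalling genes and a pair of ventricular wall markers with endothelial transcription in the mouse. All 46 were matched by symbol to 1 Ensembl identifier each, among 53465 identifiers in the table, and all 46 had counts in each of the 8 libraries and passed the filter on low counts. RNA was measured by poly(A) RNA-seq in ventricles of embryos at E15.5, with 1 ventricle sample per library, in 4 *Nrg1GOF* and 4 WT libraries. The *Nrg1GOF* label reads Rosa26Nrg-1;Nkx5.5-Cre, whereas the driver is spelled Nkx2.5-Cre in the series title. In that genotype neuregulin-1, a growth factor that binds ErbB receptors, is overexpressed from the Rosa26 locus where the Cre has acted. The WT label names no allele, and the labels do not say whether WT embryos carried the Cre or were littermates.

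The endothelium of the embryonic ventricle is of several kinds. The endocardium lines the chamber and covers the trabeculae, the coronary endothelium forms the capillaries, arteries and veins inside the wall, and lymphatic vessels appear later and run near the epicardium. Myocardium and endocardium exchange signals during growth of the wall, and neuregulin-1 is made by the endocardium in the normal heart and is received by ErbB receptors on cardiomyocytes.

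Library totals lay between 8038641 and 26786039 counts, and *Nrg1GOF* library 4 was the shallowest. Mitochondrial genes took 3.10% to 4.35% of counts in *Nrg1GOF* and 4.30% to 5.78% in WT, with WT libraries 3 and 4 highest, and the part of this share in the levels below was not tested. All levels below are CPM (counts-per-million), for which library sizes were first scaled with the TMM factors of edgeR. *Nrg1* itself lay at 59.7 to 63.7 CPM in *Nrg1GOF* and at 3.07 to 4.47 CPM in WT, so the libraries matched their labels. WT libraries 1 and 2 stood apart from WT libraries 3 and 4 in some genes, and 3 of the 46 genes, *Egfl7*, *Ptprb* and *Sox17*, differed more than 1.25-fold between the means of these WT pairs. The labels do not say whether libraries of a group came from separate litters, so p-values measure the spread between these samples. In whole tissue, fewer cells of a type and less RNA per cell cannot be told apart.

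With genotype as the term of the edgeR quasi-likelihood test, a gene was called at an adjusted p under 0.05 (Benjamini-Hochberg over 15580 tested genes). Of the 46 genes, 28 were called (60.9%), with 21 higher and 7 lower in *Nrg1GOF*. Over all tested genes 28.7% were called, 15.9% higher and 12.8% lower. The 46 genes and the further lists below were chosen with earlier results of these data known. The shares called are therefore a description and not a test of these lists. The median log2 fold change was 0.15 over the 46 genes and -0.012 over all tested genes. The values of the groups did not overlap for 28 of the 46 genes, against 30.7% of all tested genes. By role, all 3 endocardial genes were higher, all 3 coronary genes were lower, and 8 of 13 pan-endothelial genes were not called. With WT libraries 1 and 2 as the only controls 26 of the 46 genes were called, against 18.6% of all genes tested in that fit. With WT libraries 3 and 4 as the only controls 24 were called, against 27.7% of all genes. With each WT pair summed to 1 library 20 were called (17 higher, 3 lower), against 15.3% of all genes.

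**Figure D1:**
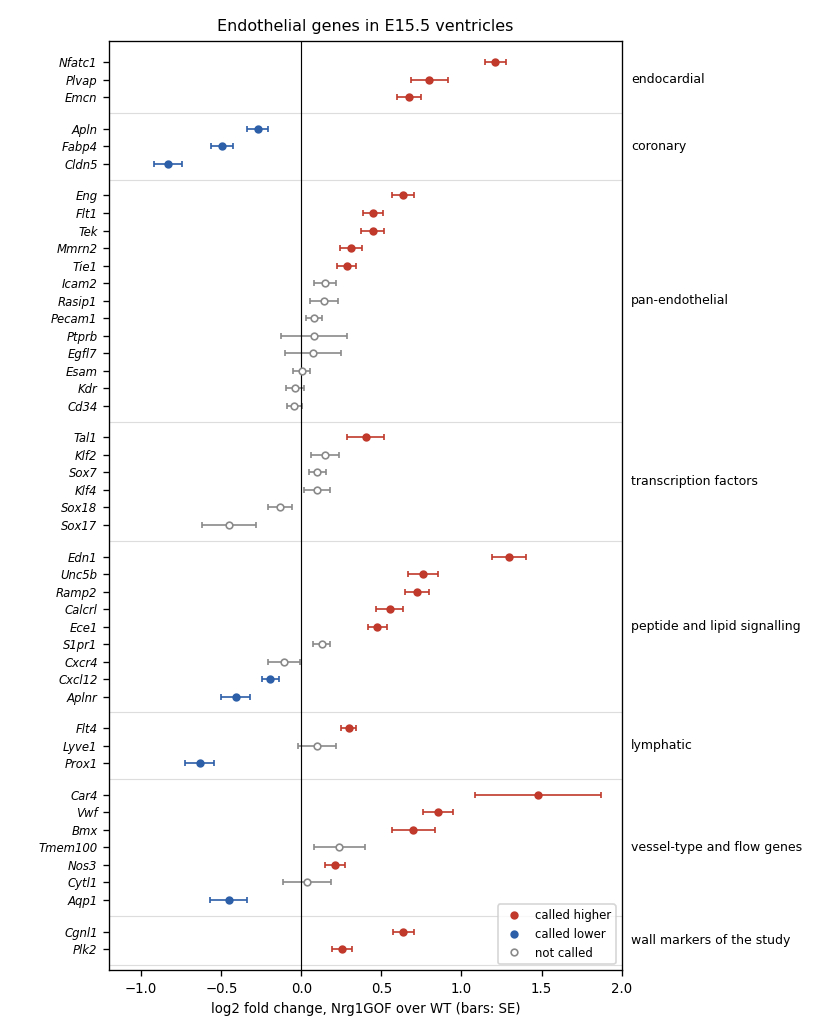
Log2 fold change of each of the 46 genes, *Nrg1GOF* over WT, on the horizontal axis, with genes grouped by role on the vertical axis, points for the estimate and bars for its SE (n = 4 libraries per group). Filled red points are called higher (21 genes), filled blue points are called lower (7 genes) and open grey points are not called (18 genes). The endocardial genes lie to the right of 0 and the coronary genes to the left.

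In WT ventricles, level per kb of annotated exon ranked *Eng* (52.0 CPM per kb), *S1pr1* (46.6), *Fabp4* (32.8), *Pecam1* (31.9) and *Ece1* (31.4) highest among the 46 genes. *Bmx* (2.68 CPM per kb), *Tal1* (2.44) and *Car4* (0.18) ranked lowest. For these lengths the exons of all annotated transcripts of a gene were joined, which for *Fabp4* covered its whole span (4489 bases). The ranks thus depend on the annotation and are not levels per base of the transcript that was made. *Car4* had 6 to 34 counts in a library, and every other gene had at least 48.

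All 3 endocardial genes rose in *Nrg1GOF*, by a median log2 fold change of 0.80. *Nfatc1*, a calcineurin-regulated transcription factor of the endocardium and the valve primordia, rose most of the 3. It lay at 80.7, 77.9, 79.9 and 71.2 CPM in *Nrg1GOF* libraries 1 to 4 and at 32.8, 36.1, 34.8 and 30.4 CPM in WT libraries 1 to 4. No library of either genotype came near the range of the other, and the log2 fold change was 1.21 (SE 0.07, adjusted p = 4.22e-06). *Plvap*, which forms the diaphragms of fenestrae and caveolae and marks the embryonic endocardium, lies at chr8:71497765-71511752 on the minus strand of GRCm38. It lay at 81.3, 102, 89.7 and 123 CPM in *Nrg1GOF* and at 57.9, 51.3, 57.5 and 59.4 CPM in WT. The *Nrg1GOF* libraries were spread over a wider range than the WT libraries, without overlap, and the log2 fold change was 0.80 (SE 0.12, adjusted p = 0.000774). *Emcn* encodes endomucin, a sialomucin of endocardium, veins and capillaries, at chr3:137341067-137432185 on the plus strand. It lay at 85.2, 82.7, 71.5 and 83.9 CPM in *Nrg1GOF* and at 49.9, 45.3, 53.5 and 53.7 CPM in WT. Its lowest *Nrg1GOF* library, the third, was above the highest WT library, and the log2 fold change was 0.67 (SE 0.08, adjusted p = 0.000202).

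All 3 coronary genes fell in *Nrg1GOF*, by a median log2 fold change of -0.49. *Cldn5* encodes claudin-5, a tight junction protein of endothelial cells that is prominent in arteries and capillaries. It lay at 14.1, 15, 16.2 and 15.6 CPM in *Nrg1GOF* and at 30.5, 25.8, 24.6 and 27.5 CPM in WT. The groups were well separated, and the log2 fold change was -0.83 (SE 0.09, adjusted p = 0.000122). *Fabp4*, a fatty acid binding protein of capillary endothelium that is also made by adipocytes and some macrophages, lies at chr3:10204088-10208576 on the minus strand. It lay at 103, 113, 101.5 and 100.5 CPM in *Nrg1GOF* and at 141, 134, 154 and 161 CPM in WT. No *Nrg1GOF* library reached the lowest WT library, and the log2 fold change was -0.49 (SE 0.07, adjusted p = 0.000724). *Apln* encodes apelin, the peptide ligand of the receptor *Aplnr*, which sprouting coronary endothelium produces. It lay at 22.6, 25.8, 22.1 and 24.0 CPM in *Nrg1GOF* and at 28.0, 29.3, 27.3 and 29.6 CPM in WT. These groups were close but did not overlap, and the log2 fold change was -0.27 (SE 0.07, adjusted p = 0.0129). The call of *Apln* was lost with WT libraries 1 and 2 as the only controls (adjusted p = 0.0564), with WT libraries 3 and 4 as the only controls (adjusted p = 0.0585), with the WT pairs summed (adjusted p = 0.0842) and with all libraries thinned to the smallest total (adjusted p = 0.0618).

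The proximal promoters of 4 genes that moved in opposite directions are shown because the endothelial genes of one tissue did not move together. The genes were chosen after their values were seen, as 1 endocardial gene (*Emcn*, higher), 1 signalling gene with the highest fold change of its group (*Edn1*, described with the signalling genes) and 2 coronary genes (*Cldn5* and *Apln*, lower). Each line holds the 250 bases before the RefSeq start of the gene, 5′ to 3′ on the strand of the gene, in GRCm38.p6. The windows are chr3:137340828-137341077 on the plus strand for *Emcn*, chr13:42301226-42301475 on the plus strand for *Edn1*, chr16:18776597-18776846 on the plus strand for *Cldn5* and chrX:48034854-48035103 on the minus strand for *Apln*. Capitals mark every match, on either strand, to one of the motifs searched. The core shared by ETS factors, which many endothelial genes use, was spelled GGAAG. The site of AP-1 dimers was spelled TGANTCA, and the site of zinc finger proteins of the family of *Gata2* was spelled AGATAA. The box bound by factors such as *Klf2* was spelled CACCC, and the core bound by factors such as *Sox17* was spelled ACAAT.
Emcn: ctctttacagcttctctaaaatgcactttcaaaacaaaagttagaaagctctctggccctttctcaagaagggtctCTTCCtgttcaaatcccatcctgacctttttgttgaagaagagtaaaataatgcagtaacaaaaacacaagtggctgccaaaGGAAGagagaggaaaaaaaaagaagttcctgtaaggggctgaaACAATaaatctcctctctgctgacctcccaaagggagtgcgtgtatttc
Edn1: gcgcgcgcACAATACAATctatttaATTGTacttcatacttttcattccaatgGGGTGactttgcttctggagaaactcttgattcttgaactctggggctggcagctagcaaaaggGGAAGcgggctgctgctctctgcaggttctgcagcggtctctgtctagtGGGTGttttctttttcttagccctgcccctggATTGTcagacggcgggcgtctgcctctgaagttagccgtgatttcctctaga
Cldn5: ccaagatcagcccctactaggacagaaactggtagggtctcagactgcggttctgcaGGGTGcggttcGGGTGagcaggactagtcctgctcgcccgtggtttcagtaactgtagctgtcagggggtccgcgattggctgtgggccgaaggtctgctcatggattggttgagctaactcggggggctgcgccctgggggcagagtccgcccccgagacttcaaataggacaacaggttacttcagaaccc
Apln: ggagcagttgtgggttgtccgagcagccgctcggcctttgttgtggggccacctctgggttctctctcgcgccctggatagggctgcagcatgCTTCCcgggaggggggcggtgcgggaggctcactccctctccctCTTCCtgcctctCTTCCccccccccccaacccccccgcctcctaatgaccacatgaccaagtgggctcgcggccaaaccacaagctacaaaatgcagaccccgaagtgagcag

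The GC content of these windows was 40.8% for *Emcn*, 50.4% for *Edn1*, 59.6% for *Cldn5* and 65.2% for *Apln*. The *Emcn* window held ETS core letters at 174 and 92 bases upstream of the start and SOX letters at 49 bases. In the *Edn1* window, SOX letters stood at 242, 237, 225 and 52 bases upstream, with the first of these matches ending where the second begins, KLF letters at 197 and 84 bases, and ETS core letters at 133 bases. *Cldn5* had KLF letters at 193 and 182 bases upstream, and *Apln* had ETS core letters at 157, 113 and 101 bases. The set of RefSeq promoters used here held an entry for 28 of the 46 genes, 15 of them called higher and 5 called lower. The ETS core was in 18 of the 28 windows, against 63.6% of all 27025 promoters of the same length, and in 8 of the 15 higher and 4 of the 5 lower genes. KLF letters were in 21 of 28 (51.3% of all promoters), SOX letters in 7 (28.3%), GATA letters in 1 (10.3%) and AP-1 letters in 0 (6.9%). A match is a run of letters and was not tested as a binding site.

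The endocardial and coronary genes were also set against each other within each library. The summed level of the 3 endocardial genes was 241 to 278 CPM in *Nrg1GOF* and 133 to 146 CPM in WT, which is 1.83 times the WT mean. The summed level of the 3 coronary genes was 140 to 154 CPM in *Nrg1GOF* and 189 to 218 CPM in WT, which is 0.707 times the WT mean. Both sums lay outside the range of the other genotype, in opposite directions. The endocardial sum divided by the coronary sum was 1.77, 1.70, 1.72 and 1.98 in *Nrg1GOF* libraries 1 to 4 and 0.704, 0.702, 0.708 and 0.659 in WT libraries 1 to 4. The ratio was thus above 1 in every *Nrg1GOF* library and below 1 in every WT library, and since the sums are not per length only its change between genotypes can be read. A ratio within a library does not depend on its scaling. It compares unequal changes and does not say which gene moved.

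**Figure D2:**
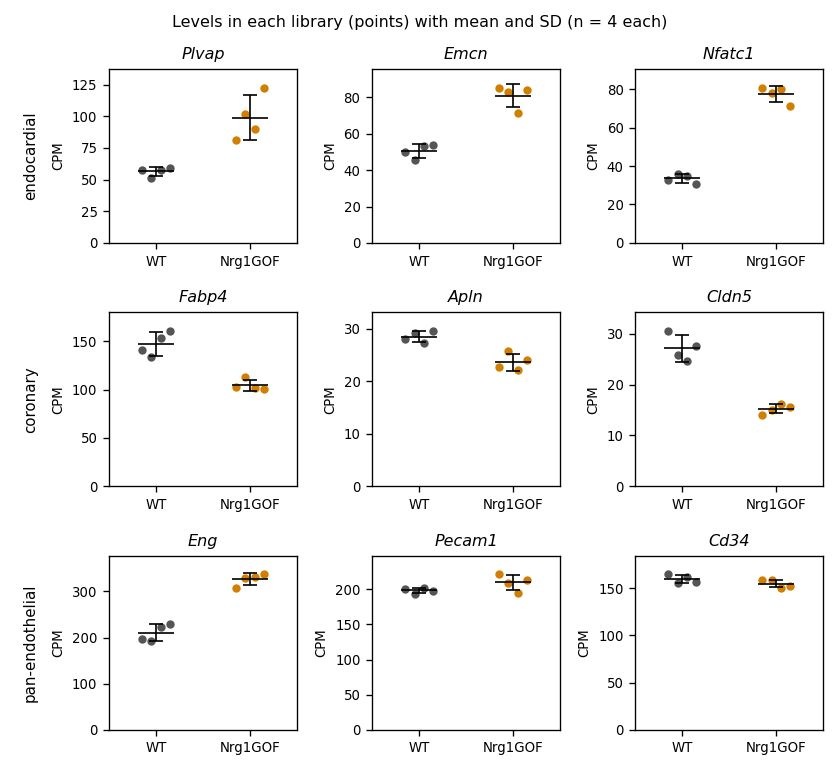
Level in CPM (vertical axis, from 0) of 3 endocardial genes (top), 3 coronary genes (middle) and 3 pan-endothelial genes (bottom) in WT and *Nrg1GOF*. Points are libraries, the long bar is the mean and the short bars are the SD (n = 4). Top row points are higher and middle row points lower in *Nrg1GOF* without overlap, and in the bottom row *Eng* is higher while *Pecam1* and *Cd34* overlap between the genotypes.

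Of the 13 pan-endothelial genes, 5 rose, 0 fell and 8 were not called, with a median log2 fold change of 0.14. By edgeR none of the 13 was lower at an unadjusted p under 0.05 either, and DESeq2 and limma-voom also called 5 higher and 0 lower. *Eng* encodes endoglin, a co-receptor for BMP and TGF-beta ligands on endothelial cells. It lay at 309, 330, 332 and 337 CPM in *Nrg1GOF* and at 196, 193, 224 and 228 CPM in WT. All 4 *Nrg1GOF* libraries were above all WT libraries, and the log2 fold change was 0.64 (SE 0.07, adjusted p = 0.000147), the highest of the 13. The receptors *Tek* (0.45, SE 0.07, adjusted p = 0.00143) and *Tie1* (0.28, SE 0.06, adjusted p = 0.00612), which form the angiopoietin receptor system, and *Flt1* (0.45, SE 0.06, adjusted p = 0.000705), a VEGF receptor that limits VEGF signalling, rose without overlap of the groups. *Mmrn2*, an extracellular matrix protein of vessels, rose by 0.31 (SE 0.07, adjusted p = 0.00927).

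The 8 pan-endothelial genes that were not called include the most widely used markers. *Pecam1*, the adhesion molecule CD31 of endothelial junctions, lay at 221, 209.7, 195 and 214 CPM in *Nrg1GOF* and at 201, 194, 202.5 and 198 CPM in WT. The lowest *Nrg1GOF* library was within the WT range, and the log2 fold change was 0.08 (SE 0.05, adjusted p = 0.295). *Cd34*, a sialomucin of endothelial and progenitor cells with the lowest fold change of the 13, lay at 158.5, 159, 151 and 153 CPM in *Nrg1GOF* and at 165, 156, 162 and 157 CPM in WT, with overlap. *Kdr*, the main VEGF-A receptor, stood at -0.04 on the log2 scale (SE 0.05, adjusted p = 0.627), and the junction protein *Esam* had 0.00 (SE 0.05, adjusted p = 0.994). The adhesion molecule *Icam2* had 0.15 (adjusted p = 0.141), and *Rasip1*, an adaptor protein needed for vessel lumens, had 0.14 (adjusted p = 0.259). *Rasip1* shares 20.4% of its exonic bases with *Izumo1* on the same strand, and *Izumo1* had 207 counts over the 8 libraries against 11759 for *Rasip1*. *Icam2* was called only without *Nrg1GOF* library 3 (0.21, adjusted p = 0.0326).

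In the remaining 2 pan-endothelial genes the WT libraries themselves fell into pairs. *Egfl7*, a secreted protein of endothelial cells that hosts miR-126, lay at 53.4 and 52.2 CPM in WT libraries 1 and 2 and at 80.6 and 86.5 CPM in WT libraries 3 and 4. *Ptprb*, the vascular endothelial phosphatase VE-PTP, lay at 65.7 and 68.0 CPM in WT libraries 1 and 2 and at 39.2 and 40.4 CPM in WT libraries 3 and 4. The *Nrg1GOF* libraries ranged from 59.0 to 83.6 CPM for *Egfl7* and from 42.4 to 68.1 CPM for *Ptprb*, inside or close to the span of the WT pairs. With WT libraries 1 and 2 as the only controls the log2 fold change of *Egfl7* was 0.44 (adjusted p = 0.0398) and that of *Ptprb* was -0.25. With WT libraries 3 and 4 as the only controls they were -0.21 for *Egfl7* and 0.51 for *Ptprb* (adjusted p = 0.0367). No direction can be given for either gene.

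The summed level of the 13 pan-endothelial genes was 1679 to 1737 CPM in *Nrg1GOF* and 1420 to 1486 CPM in WT, 1.17 times the WT mean. Relative to this sum, the endocardial sum was 0.143 to 0.160 in *Nrg1GOF* and 0.0934 to 0.0981 in WT. The coronary sum relative to the same 13 genes was 0.0807 to 0.0897 in *Nrg1GOF* and 0.133 to 0.148 in WT. The groups did not overlap in either ratio. Since the pan-endothelial sum was itself higher in *Nrg1GOF*, dividing by it lowers the coronary values further, and these ratios are a description.

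**Figure D3:**
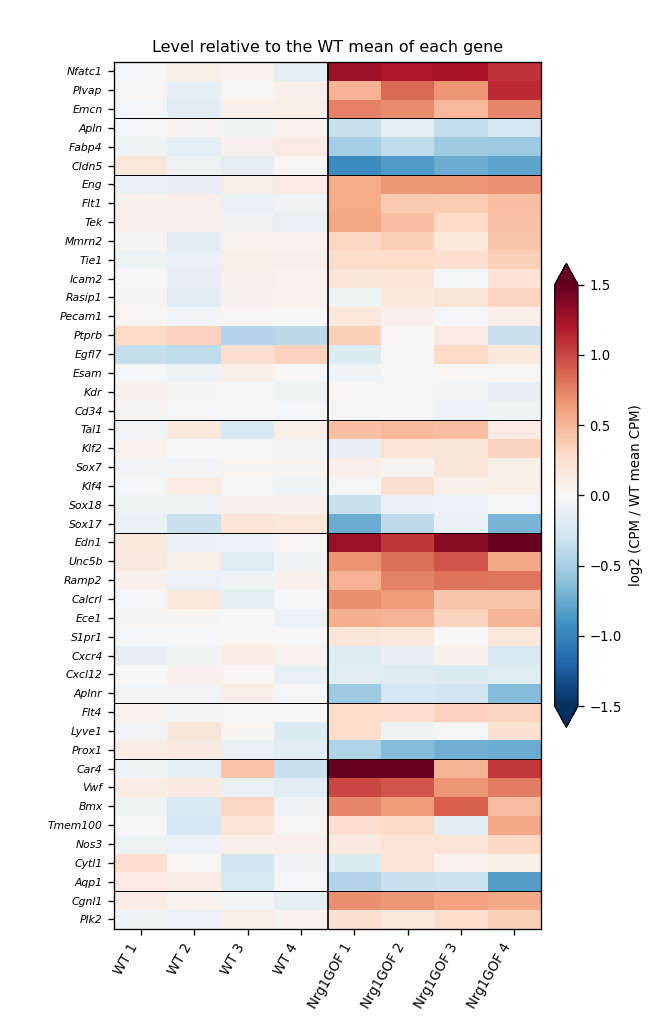
Level of each of the 46 genes (rows, by role, in the order of the fold changes) in each library (columns), as log2 of CPM over the mean CPM of the WT libraries of the same gene. Red is above and blue is below the WT mean, with the colour scale ending at 1.5 in either direction. *Egfl7* and *Ptprb* show the split between WT libraries 1 and 2 and WT libraries 3 and 4.

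Of the 6 transcription factors, 1 was called. *Tal1*, a basic helix-loop-helix factor needed for endocardial and blood development, lay at 14.6, 15.1, 14.7 and 11.6 CPM in *Nrg1GOF* and at 10.4, 11.8, 9.14 and 11.4 CPM in WT. *Nrg1GOF* library 4 overlapped the WT range, and the log2 fold change was 0.40 (SE 0.11, adjusted p = 0.0251). Its call was lost without *Nrg1GOF* library 1 (adjusted p = 0.0611), 2 (adjusted p = 0.0831) or 3 (adjusted p = 0.0563), without WT library 1 (adjusted p = 0.0602) or 3 (adjusted p = 0.0667), with WT libraries 1 and 2 alone (adjusted p = 0.110), with the WT pairs summed (adjusted p = 0.0779) and with all libraries thinned to the smallest total (adjusted p = 0.076). The SOXF factors act in arterial and lymphatic specification. *Sox17*, the arterial member, lay at 8.58, 10.95, 13.4 and 8.88 CPM in *Nrg1GOF* and at 13.4, 11.5, 16.6 and 16.1 CPM in WT. The groups overlapped, and its value of -0.45 on the log2 scale (SE 0.17) was not called by the quasi-likelihood test (adjusted p = 0.0704). It was called by DESeq2 (adjusted p = 0.0396) and by the likelihood ratio test of edgeR (adjusted p = 0.0479), and also without *Nrg1GOF* library 3 (adjusted p = 0.0243), without WT library 2 (adjusted p = 0.0376) and with WT libraries 3 and 4 as the only controls (-0.62, adjusted p = 0.0291). With WT libraries 1 and 2 as the only controls it was -0.24 (adjusted p = 0.421). *Sox7* lay at 56.3 to 61.9 CPM in *Nrg1GOF* and at 53.0 to 56.0 CPM in WT, without overlap but also without a call (0.10, adjusted p = 0.174). *Sox18* had a log2 fold change of -0.13 (adjusted p = 0.229). *Klf2* (0.15, adjusted p = 0.243) and *Klf4* (0.10, adjusted p = 0.405), both induced by shear stress, were not called, and *Klf2* was called only without *Nrg1GOF* library 1 (0.23, adjusted p = 0.0278).

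Of the 9 signalling genes, 5 rose and 2 fell, with a median log2 fold change of 0.47. Among ligands and their processing enzyme, *Edn1* encodes the precursor of endothelin-1, a vasoactive peptide of endothelium and endocardium, and *Ece1* encodes the protease that cuts that precursor. *Edn1* lay at 20.8, 18.1, 21.6 and 24.2 CPM in *Nrg1GOF* and at 9.48, 8.02, 8.09 and 8.69 CPM in WT. Every *Nrg1GOF* library was far above every WT library, and the log2 fold change was 1.29 (SE 0.10, adjusted p = 3.94e-05). *Ece1* rose by 0.47 (SE 0.06, adjusted p = 0.000386), from 157 to 172 CPM in WT to 209.5 to 241 CPM in *Nrg1GOF*. The chemokine *Cxcl12*, which guides coronary vessel growth and is also made by stromal cells, fell by 0.19 on the log2 scale (SE 0.05, adjusted p = 0.0189), and its receptor *Cxcr4* was not called (-0.11, adjusted p = 0.471). The call of *Cxcl12* was lost without *Nrg1GOF* library 2 (adjusted p = 0.0572), WT library 2 (adjusted p = 0.0525) or WT library 3 (adjusted p = 0.0533), with WT libraries 3 and 4 alone (adjusted p = 0.117), with the WT pairs summed (adjusted p = 0.0918) and after thinning (adjusted p = 0.0906).

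Both parts of the adrenomedullin receptor rose. *Calcrl* encodes the receptor itself and *Ramp2* the accessory protein that gives it its affinity for adrenomedullin. *Calcrl* lay at 76.5, 73.7, 63.2 and 63.2 CPM in *Nrg1GOF* and at 46.8, 53.0, 42.9 and 46.6 CPM in WT. These groups did not overlap, and the log2 fold change was 0.55 (SE 0.09, adjusted p = 0.0012). *Ramp2* lay at 77.0, 89.5, 94.1 and 93.6 CPM in *Nrg1GOF* and at 56.2, 50.4, 51.6 and 56.3 CPM in WT, again without overlap. Its log2 fold change was 0.72 (SE 0.07, adjusted p = 0.000125). *Ramp2* shares 33.4% of its exonic bases with *Vps25* on the same strand, so that reads there are divided by estimate, and *Vps25* had a log2 fold change of 0.13 (adjusted p = 0.247).

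*Unc5b*, a netrin receptor of endothelial tip cells and arteries, lay at 252, 278, 301.5 and 234 CPM in *Nrg1GOF* and at 172, 168, 138 and 151 CPM in WT. The lowest *Nrg1GOF* library was above every WT library, and the log2 fold change was 0.76 (SE 0.09, adjusted p = 0.000348). *Aplnr*, the apelin receptor, which coronary progenitors of the sinus venosus carry, had the lowest fold change of the 9 genes. It lay at 39.8, 48.8, 48.1 and 37.1 CPM in *Nrg1GOF* and at 56.2, 56.6, 62.2 and 57.2 CPM in WT. Like its ligand *Apln*, it fell without overlap, by 0.41 on the log2 scale (SE 0.09, adjusted p = 0.00714), and its adjusted p with the WT pairs summed was 0.0522. *S1pr1*, the main sphingosine-1-phosphate receptor of endothelium, was not called (0.13, adjusted p = 0.103), with 142 to 161 CPM in *Nrg1GOF* and 140.4 to 144 CPM in WT. It was called without *Nrg1GOF* library 3 (0.17, adjusted p = 0.0169) and with scaling by the library total (0.17, adjusted p = 0.0236).

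The lymphatic genes did not move together. *Flt4* encodes VEGFR-3, a receptor for VEGF-C and VEGF-D that is present in lymphatic vessels and, in the embryo, in other endothelium. It lay at 51.4, 51.1, 54.6 and 53.6 CPM in *Nrg1GOF* and at 44.4, 41.7, 42.2 and 43.1 CPM in WT. The groups were narrow and separate, and the log2 fold change was 0.30 (SE 0.05, adjusted p = 0.00156). *Prox1*, the homeobox factor that specifies lymphatic endothelium and is also expressed in cardiomyocytes, lay at 101.5, 89.0, 84.4 and 83.3 CPM in *Nrg1GOF* and at 150.1, 153, 130.0 and 124 CPM in WT. No *Nrg1GOF* library reached the WT range, and the log2 fold change was -0.64 (SE 0.09, adjusted p = 0.00068). Of 8 cardiomyocyte markers, 4 were also called lower, and their part in the level of *Prox1* was not tested. *Lyve1*, a hyaluronan receptor of lymphatic endothelium and resident macrophages, lay at 9.24 to 11.7 CPM in *Nrg1GOF* and at 8.48 to 11.0 CPM in WT and was not called (0.10, adjusted p = 0.596).

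Of the 7 vessel-type and flow genes, 4 rose and 1 fell, with a median log2 fold change of 0.24 (0.18 to 0.37 when a library was left out). *Vwf* encodes von Willebrand factor, stored in endothelial cells of larger vessels and endocardium and in platelets. It lay at 112, 107, 88.0 and 95.0 CPM in *Nrg1GOF* and at 60.2, 61.0, 51.3 and 50.0 CPM in WT. The separation was complete, and the log2 fold change was 0.85 (SE 0.10, adjusted p = 0.000187). Of 6 platelet and megakaryocyte markers 0 were called, and the part of platelets in the level of *Vwf* was not tested. *Bmx*, a tyrosine kinase of arterial endothelium and endocardium, lay at 13.8, 12.9, 15.4 and 11.5 CPM in *Nrg1GOF* and at 7.83, 7.04, 10.3 and 7.99 CPM in WT. The groups did not overlap, although WT library 3 came close, and the log2 fold change was 0.70 (SE 0.14, adjusted p = 0.0041). *Aqp1*, the water channel of capillary endothelium and red blood cells, was highest in WT libraries 1 and 2. It lay at 43.8, 47.0, 47.6 and 33.4 CPM in *Nrg1GOF* and at 64.7, 64.2, 50.4 and 58.2 CPM in WT. It fell by 0.45 on the log2 scale (SE 0.12, adjusted p = 0.0152), and its call was lost when WT libraries 3 and 4 were the controls (adjusted p = 0.103) and with the WT pairs summed (adjusted p = 0.0649). The summed level of 8 red blood cell markers was also highest in WT libraries 1 and 2 (13037 and 12197 CPM, against 5502 and 4417 CPM in WT libraries 3 and 4), and its part in the level of *Aqp1* was not tested.

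*Car4*, a membrane-bound carbonic anhydrase of capillary endothelium, had the lowest counts of the 46 genes. With all libraries it also had the highest fold change, a rank that it lost without *Nrg1GOF* library 1. It lay at 1.54, 1.19, 0.513 and 0.750 CPM in *Nrg1GOF* and at 0.344, 0.327, 0.485 and 0.287 CPM in WT, where 3 counts correspond to 0.112 to 0.373 CPM of the unscaled total. The groups touched without overlap, and the log2 fold change was 1.48 (SE 0.39, adjusted p = 0.0185). The call was lost without *Nrg1GOF* library 1 (1.17, adjusted p = 0.0643), *Nrg1GOF* library 2 (1.39, adjusted p = 0.0606) or WT library 4 (1.38, adjusted p = 0.0561), with either WT pair alone (adjusted p = 0.078 and 0.0903) and with the WT pairs summed (adjusted p = 0.089), and thinning to the smallest total left too few counts of *Car4* to test it. *Nos3*, the endothelial nitric oxide synthase, rose by 0.21 (SE 0.06, adjusted p = 0.0283), and its call was lost without *Nrg1GOF* library 2 (adjusted p = 0.0677) or 4 (adjusted p = 0.0534), without WT library 1 (adjusted p = 0.0763) or 2 (adjusted p = 0.0739), with WT libraries 3 and 4 alone (adjusted p = 0.152), with the WT pairs summed (adjusted p = 0.114) and after thinning (adjusted p = 0.0819). *Nos3* overlaps the antisense genes *Gm15587* and *Atg9b* over 25.2% and 7.1% of its exonic bases. *Tmem100*, a BMP-dependent membrane protein of arteries and endocardium, and *Cytl1*, a secreted cytokine-like protein, were not called (0.24, adjusted p = 0.301 and 0.04, adjusted p = 0.888).

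Both ventricular wall markers rose. *Cgnl1* encodes cingulin-like 1, a junction-associated protein, and was included for its transcription in the mouse endocardium. It lay at 247, 242, 232 and 225 CPM in *Nrg1GOF* and at 165, 158, 148 and 138 CPM in WT. The groups were separate, and the log2 fold change was 0.64 (SE 0.07, adjusted p = 0.000122). *Plk2* encodes a polo-like kinase of the stress and cell cycle response that is not particular to endothelium. It lay at 147, 140.4, 149.8 and 160.5 CPM in *Nrg1GOF* and at 119, 118, 134 and 129 CPM in WT. The log2 fold change was 0.25 (SE 0.06, adjusted p = 0.0134), and its call was lost when WT libraries 3 and 4 were the controls (0.19, adjusted p = 0.0838) and with the WT pairs summed (adjusted p = 0.0755).

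Further endothelial genes that are not among the 46 were counted from a separate list of 24, all tested. Of these, 8 were higher, 1 was lower and 15 were not called, with a median log2 fold change of 0.13. The share called was 37.5%, against 28.7% of all tested genes. The one that fell was *Gpihbp1*, the capillary anchor of lipoprotein lipase, at 7.44 to 9.25 CPM in *Nrg1GOF* and 11.8 to 16.0 CPM in WT (log2 fold change -0.78, SE 0.12, adjusted p = 0.00122). *Npr3*, a natriuretic peptide receptor of the endocardium, rose by 0.37 (SE 0.08, adjusted p = 0.00753). The transcriptional regulators *Lmo2* (0.70, SE 0.07, adjusted p = 7.61e-05) and *Gata2* (0.44, SE 0.11, adjusted p = 0.0141), partners of *Tal1* in endothelial and blood cells, also rose, as did *She* (0.38) and *Clec14a* (0.35). The call of *Npr3* was lost with WT libraries 1 and 2 as the only controls (adjusted p = 0.0687), and that of *Gata2* with WT libraries 3 and 4 (adjusted p = 0.0572). *Cdh5*, the VE-cadherin of endothelial junctions, was named after its values were seen and lay at 315 to 326 CPM in *Nrg1GOF* and at 319 to 338 CPM in WT (-0.04, adjusted p = 0.608).

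A list of 19 genes held mostly ligands of the receptors above. It also held *Sphk1*, *Sphk2* and *Spns2*, which make or export sphingosine-1-phosphate, and *Edn2* and *Edn3*, whose receptors are not named above. Of the 19 genes 16 were tested, 8 were higher and 2 were lower, with a median log2 fold change of 0.32. The share called was 62.5%, against 28.7% of all tested genes. *Ntn1*, a netrin that binds *Unc5b*, lay at 402 to 523 CPM in *Nrg1GOF* and at 218 to 247 CPM in WT and rose by 0.97 (SE 0.08, adjusted p = 5.37e-05). *Ntn4*, a netrin of vascular basement membranes, had the opposite direction, at 12.1 to 17.5 CPM in *Nrg1GOF* and 38.4 to 49.5 CPM in WT (-1.48, SE 0.12, adjusted p = 3.66e-05). *Bmp10*, a trabecular ligand that binds *Eng*, rose by 0.77 (SE 0.09, adjusted p = 0.000299), and *Vegfd*, a ligand of *Flt4*, by 1.33 (SE 0.30, adjusted p = 0.00832). *Apela*, the second ligand of *Aplnr*, rose by 0.85 (SE 0.27, adjusted p = 0.038) while *Apln* and *Aplnr* fell, and the kinase *Sphk1* rose by 1.55 (SE 0.30, adjusted p = 0.00383). The WT pairs differed in these low-count genes, with means of 2.81 CPM in WT libraries 1 and 2 and 1.504 CPM in WT libraries 3 and 4 for *Apela*, 0.838 and 1.57 CPM for *Sphk1*, and 3.35 and 2.12 CPM for *Vegfd*. With WT libraries 1 and 2 as the only controls the calls of *Apela* (0.47, adjusted p = 0.162) and *Vegfd* (1.035, adjusted p = 0.0564) were lost, and with WT libraries 3 and 4 they were 1.37 (adjusted p = 0.00458) and 1.72 (adjusted p = 0.00708). *Angpt1*, the agonist of *Tek*, was named after its values were seen and rose by 0.53 (SE 0.06, adjusted p = 0.000135). *Vegfa*, named likewise, split the WT libraries as *Egfl7* did, at 137 and 139.8 CPM in WT libraries 1 and 2 and at 272 and 278 CPM in WT libraries 3 and 4 (0.07, adjusted p = 0.878). Its log2 fold change was 0.65 (adjusted p = 0.0289) with the first WT pair as the only controls and -0.34 (adjusted p = 0.165) with the second, so no direction can be given.

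Markers of other cell types moved between the genotypes as well. All 8 fibroblast and mesenchyme markers were called higher, with a summed level of 7430 to 9534 CPM in *Nrg1GOF* and 4000 to 5456 CPM in WT. The WT libraries fell into the same pairs for this list, with 5456 and 5435 CPM in WT libraries 1 and 2 and 4000 and 4024 CPM in WT libraries 3 and 4. Of 9 macrophage markers 8 were higher (132 to 155 CPM against 70.2 to 77.8 CPM summed), and of 8 epicardial markers 5 were higher and 1 lower (225 to 260 CPM against 176 to 208 CPM). Of 8 mural markers 3 were higher and 3 lower (1253 to 1360 CPM against 1575 to 1824 CPM). The mural sum mostly followed *Acta2*, at 622 to 739 CPM in *Nrg1GOF* and 991 to 1150 CPM in WT. Of 8 cardiomyocyte markers 4 were called lower and none higher (33552 to 39027 CPM against 41600 to 45022 CPM). At an unadjusted edgeR p under 0.05, 5 of them were lower and 1, *Myh6*, was higher (log2 fold change 0.51, adjusted p = 0.105). Of 8 markers of atrial myocardium 5 were higher (1731 to 1901 CPM against 1077 to 1219 CPM). By edgeR, DESeq2 or limma-voom, and at an unadjusted edgeR p under 0.05, none of 8 red blood cell markers was called (5432 to 8897 CPM against 4417 to 13037 CPM, with WT libraries 1 and 2 highest and WT library 4 lowest), nor any of 6 platelet and megakaryocyte markers (11.5 to 12.7 CPM against 9.34 to 14.3 CPM). No marker of these lists was at 0 in any library. The part of these shifts in the endocardial and coronary levels was not tested.

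**Figure D4:**
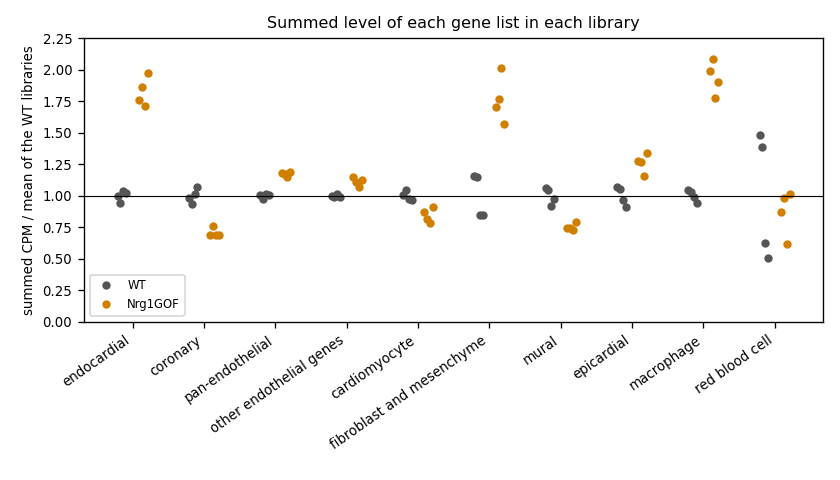
Summed CPM of each gene list in each library, divided by the mean of the WT libraries (vertical axis, no unit, from 0), with WT in grey and *Nrg1GOF* in orange. The endocardial sum is 1.83 and the coronary sum 0.707 times the WT mean, the fibroblast and macrophage sums are 1.77 and 1.94 times, and the red blood cell sums of the WT libraries spread to both sides of 1.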

How the data were processed

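Poly(A) RNA-seq libraries of E15.5 mouse ventricles were analysed, 4 per genotype, grouped and numbered by the sample titles. Per the labels, libraries were directional, made from 100 ng of RNA and read as single reads of 60 bases. The table that the authors deposited holds RSEM expected counts by gene, for GRCm38 and Ensembl release 91, with no scaling for depth or length. The submitters' processing notes name RSEM 1.3.1 and cutadapt, and the aligner and strand setting are not given in the sources used here. Without the strand setting, reads of a gene and its antisense partner cannot be told apart. Reads that match several genes are divided between them by estimate, and between 8.4% and 13.2% of values per library were not whole.

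Expected counts were rounded, genes were kept with filterByExpr of edgeR 4.0.16 (R 4.3.3), scaled by TMM and tested with the quasi-likelihood F-test, in which genotype was the only term. An edgeR generalised linear model with a false discovery rate of 0.05 was also the study's method. All tests were two-sided. Log2 fold changes are *Nrg1GOF* over WT, and the SE is their absolute value over the root of F. The procedure was tested on simulated data. Symbols were found for 53274 of 53465 identifiers, and coordinates and exon lengths came from GENCODE M21 on GRCm38, a later release than the one counted. The floor of 3 counts covers counting error only, since the reads carried no molecular identifiers.

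The 46 genes, their role groups and the other lists were chosen with earlier results of these data known. Every one of the 46 is named. Values of each library are given for the endocardial, coronary and wall marker genes, for genes called with an absolute log2 fold change of at least 0.5, and for the highest and lowest of each role group. Of the 2 further lists, at most the 6 called genes with the largest change are named, with exceptions marked in the text. Alternatives were 3 other scalings, DESeq2 1.42.0, limma-voom (limma 3.58.1), the likelihood ratio test, 2 other low-count filters, unrounded counts, the replicate number as a block, 2 stricter thresholds, leaving out each library, each WT pair as the only controls, WT pairs summed, and thinning to the smallest total. Promoter sequences were read from RefSeq (GRCm38.p6).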

Additional observations from a re-analysis of the deposited data

Results flagged for a closer look

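In 8 of 108 groups of 4 libraries that were examined, 1 library lay apart from the other 3 by Dixon's criterion at 95%, where chance gives about 1 in 20 groups, or 5.4. WT library 2 was low for *Mmrn2* (74.4 CPM, others 85.3 to 85.9 CPM) and for *Rasip1* (59.6 CPM, others 69.4 to 70.1 CPM). WT library 3 was high for *Aplnr* (62.2 CPM, others 56.2 to 57.2 CPM). *Nrg1GOF* library 3 was low for *S1pr1* (142 CPM, others 158 to 161 CPM) and for *Ece1* (209.5 CPM, others 238 to 241 CPM), and *Nrg1GOF* library 4 was low for *Tal1* (11.6 CPM, others 14.6 to 15.1 CPM). Among the summed levels, *Nrg1GOF* library 2 was high for the coronary genes (154 CPM, others 139.8 to 140.1 CPM) and *Nrg1GOF* library 1 was high for the lymphatic genes (164.5 CPM, others 148 to 149 CPM). Most of the lymphatic sum was *Prox1*, at 101.5 CPM in *Nrg1GOF* library 1 and 83.3 to 89.0 CPM in the other *Nrg1GOF* libraries. Of the single genes flagged, *S1pr1* changed its call when the library that lay apart was left out.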

How the results depend on the processing

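Of 1422 recomputed values, 1313 held both direction and side of the threshold, or moved by less than the limit set for them. The number of genes called among the 46 was 24 to 30 when a library was left out (18 to 22 higher and 6 to 8 lower), against 28. The count over all genes was 3239 to 4261 when a library was left out, against 4467. Summing the WT pairs left 2464 calls over all genes, and 3 of the 46 were lower. With an adjusted p under 0.01 the counts were 2535 and 4 lower, and with a minimum absolute log2 fold change of 0.5 they were 2008 over all genes, 14 of the 46 (12 higher, 2 lower) and 2 of the other endothelial genes. Against WT libraries 1 and 2 alone the median log2 fold change was -0.395 for the coronary and 0.207 for the pan-endothelial genes, and against WT libraries 3 and 4 alone -0.58 and 0.0962. The median of the vessel-type and flow genes was 0.181 to 0.368 when a library was left out. Among single genes of the 46, direction turned in 5, none of which was called by edgeR with all libraries. *Esam* was -0.000207 with RLE size factors, -0.00194 with DESeq2, -0.00103 with limma-voom, -0.000367 with the likelihood ratio test, -0.00171 without a low-count filter, -0.04 against WT libraries 3 and 4 and -0.0154 after thinning, and -0.0227 to 0.0329 with a library left out. *Kdr* was 0.00306 with scaling by the library total and 0.021 against WT libraries 3 and 4. *Egfl7* was -0.213 against WT libraries 3 and 4 (-0.036 to 0.205 with a library left out). *Ptprb* was -0.249 and *Cytl1* -0.113 against WT libraries 1 and 2 (-0.0461 to 0.213 and -0.0481 to 0.134 with a library left out). The cause of these changes was not tested. With the replicate number as a block 29 of the 46 genes were called, the same 28 and *Sox17* (-0.452, adjusted p = 0.0412), against 4524 (29%) of all genes tested. The labels do not say whether equal numbers mark a shared litter or batch, so the samples were not treated as paired. Correlations of same-numbered libraries were 0.0492 to 0.199 (mean 0.111, 2 of 4 above 0.1) against a mean of -0.0373 for different numbers, and 4 of 8 libraries correlated best with their own number. Thinning all libraries to 8038641 counts left 23 of the 46 genes called, against 3494 (25.3%) of all genes tested, since *Apln*, *Tal1*, *Cxcl12* and *Nos3* lost their calls and *Car4* no longer passed the low-count filter. *Car4* likewise could not be tested with the filter of at least 1 CPM in 4 libraries.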
